A study of Homo sapiens with 12 samples.

Results

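IGFBPL1, a secreted relative of the insulin-like growth factor binding proteins, and 9 further genes of the insulin-like growth factor (IGF) axis were followed through RNA sequencing libraries of 2 human prostate cancer lines, 22RV1 and C4-2B. The 10 genes are IGFBPL1, IGFBP2, IGFBP3, IGFBP4, IGFBP5, IGFBP6, IGF2, IGF1R, INSR and IRS1. They were taken by gene symbol from the 60314 named entries of each line's expression table, and all 10 were found in both tables. IGFBPL1 was selected on its normalized counts in these libraries, in controls and with 56-mer, and the others were chosen by symbol with their levels and 56-mer changes known, so the pattern of IGFBPL1 is a description and carries no test. Of the 10 genes, 7 in 22RV1 and 6 in C4-2B reached the level set for testing, which asks for 10 or more normalized counts in 3 or more of a line's 6 libraries. Normalized counts are read counts that the authors divided by 1 size factor per library.

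Both lines are castration-resistant, that is, able to grow at low androgen. C4-2B descends from LNCaP cells and 22RV1 from a xenograft. Per the labels both are wild type in genotype, with no engineered allele named. The treated groups were 22RV1 and C4-2B cells given 50 nM of the 56-mer, an aptamer (a folded oligonucleotide that binds a target) that the series title traces to cyanobacteria, together with 2 mM L-glutamine for 48 h. The control groups were the same lines given 2 mM L-glutamine alone for 48 h, so glutamine was present in every library. Medium was RPMI-1640 made without glutamine, with 5% fetal bovine serum, which itself brings growth factors. Each of these 4 groups holds 3 libraries, called biological triplicates in the series text; nothing states separate culture days, so p-values measure the spread between these libraries.

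The IGF axis carries growth and survival signals into epithelial cells. The ligands IGF1 and IGF2 bind the receptor tyrosine kinase IGF1R, and IGF2 also binds the insulin receptor INSR; both receptors pass the signal through adaptors such as IRS1 to the PI3K-AKT and RAS-MAPK pathways. Secreted IGF binding proteins hold the ligands outside the cell and set how much reaches the receptors. In prostate cancer the axis has long been studied beside androgen signalling as a source of growth signals.

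IGFBPL1 lies on chromosome 9. The 300 bases around its start, from 250 before to 50 after, are shown because the results turn mainly on this gene. The sequence is from RefSeq on GRCh38.p14, chr9:38424405-38424704 on the minus strand, written 5′ to 3′ with each CG dinucleotide in capitals.
IGFBPL1: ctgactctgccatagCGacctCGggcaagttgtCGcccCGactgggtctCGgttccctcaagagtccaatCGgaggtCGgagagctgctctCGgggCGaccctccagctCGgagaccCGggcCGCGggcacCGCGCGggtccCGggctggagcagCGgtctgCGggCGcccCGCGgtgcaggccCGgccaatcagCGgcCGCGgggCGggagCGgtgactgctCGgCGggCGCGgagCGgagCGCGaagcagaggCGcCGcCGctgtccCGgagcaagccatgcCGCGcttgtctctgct
The window holds 41 CG dinucleotides and 74.0% G or C. The median of the 35116 promoter windows of this length in the RefSeq table was 14 CG dinucleotides, and 93.3% of them held fewer than this one. Promoter windows were found for 9 of the 10 genes. The series holds no methylation or binding data for this window, and the count is only a description of its letters.

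Recovered reads numbered 8847368 to 13740386 per library with 56-mer and 10245014 to 13627140 per control library. The luminal prostate markers KLK3, KRT8 and HOXB13 stood at 10 or more in all 12 libraries, and none of 5 leukocyte markers did so in any group. Libraries also differed by gene properties. In 22RV1 the deviations of the first 56-mer library from the line's mean correlated with GC content across 12276 genes (Spearman rho −0.58, against −0.14 to 0.38 in the other 5 libraries). In C4-2B the deviations of the first 56-mer library correlated with the length of a gene's joined exons across 10457 genes (rho −0.31, against −0.08 to 0.22 in the others). With GC content the rho of the other 2 C4-2B libraries with 56-mer was 0.30 and 0.32, against −0.21 to −0.0049 in the C4-2B controls. The part of these trends in the results below was not tested. Each line was normalized separately by the authors, so levels of the lines are set side by side without a test, also as reads scaled to each library's total (CPM).

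IGFBPL1, whose amino-terminal part resembles that of the classical IGF binding proteins, was almost unread in C4-2B with 56-mer. It had 0, 0 and 0.974 normalized counts in C4-2B with 56-mer, against 27.8, 26.2 and 16.1 in C4-2B controls. The groups did not overlap, and 2 of the 3 treated libraries held no read at all. Among all genes tested in C4-2B the groups did not overlap in 14.7%, with 56-mer higher in 7.59% and lower in 7.08%. In reads, 1 of 37132284 in the treated C4-2B libraries fell on IGFBPL1, against 68 of 34849110 in the controls. At equal normalized depth the treated libraries held 1.42% of the control level, with a counting interval of 0.0355% to 8.19% (95%, exact; counting error only). The mean was 0.325 ± 0.563 with 56-mer and 23.4 ± 6.37 in controls (SD, n = 3 each). Fewer cells carrying the transcript and less of it per cell cannot be told apart in bulk RNA.

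In 22RV1 the same gene was well read in every library. IGFBPL1 had 103, 135 and 79.5 normalized counts in 22RV1 with 56-mer, against 103, 76.1 and 107 in 22RV1 controls, and the groups overlapped. Summed over libraries, 304 reads stood in the treated group and 300 in the controls, a ratio of 1.06 at equal normalized depth (counting interval 0.901 to 1.25). The fitted log2 changes, 56-mer over control on the log2(normalized count + 1) scale, were 0.13 ± 0.24 in 22RV1 and −4.24 ± 1.37 in C4-2B (limma standard errors), and their difference, 22RV1 minus C4-2B, was 4.37 ± 0.74. The difference came from a separate fit with 1 variance per gene shared by both lines. Its standard error is therefore below that of the C4-2B change and does not make the difference more certain. The 22RV1 value turned with single libraries, from −0.063 without the second treated library to 0.32 without the third. These values describe the pattern for which the gene was chosen, and no p-value is attached to them.

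The size of the C4-2B value depended on how low counts were handled. The log2 change was −1.68 with a pseudocount of 10 and −6.69 with a pseudocount of 0.1. Without the first 56-mer library it was −4.08, and leaving out any other treated library gave −4.57 to −4.08. IGFBPL1 reached the level for testing in C4-2B only through its 3 controls, and leaving out any of them took it below that level. Counting error alone would give a coefficient of variation of 21.1% in the C4-2B controls, where 27.2% was observed. The authors' deposited table lists IGFBPL1 at a log2 change of 0.14 ± 0.29 in 22RV1 and −6.07 ± 1.49 in C4-2B, with an adjusted p of 0.99999 in 22RV1 and of 1 in C4-2B. Over all genes the smallest adjusted p that the authors list (Wald test) was 0.447 in C4-2B and 0.99999 in 22RV1, so no gene passed there.

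**Figure D1:**
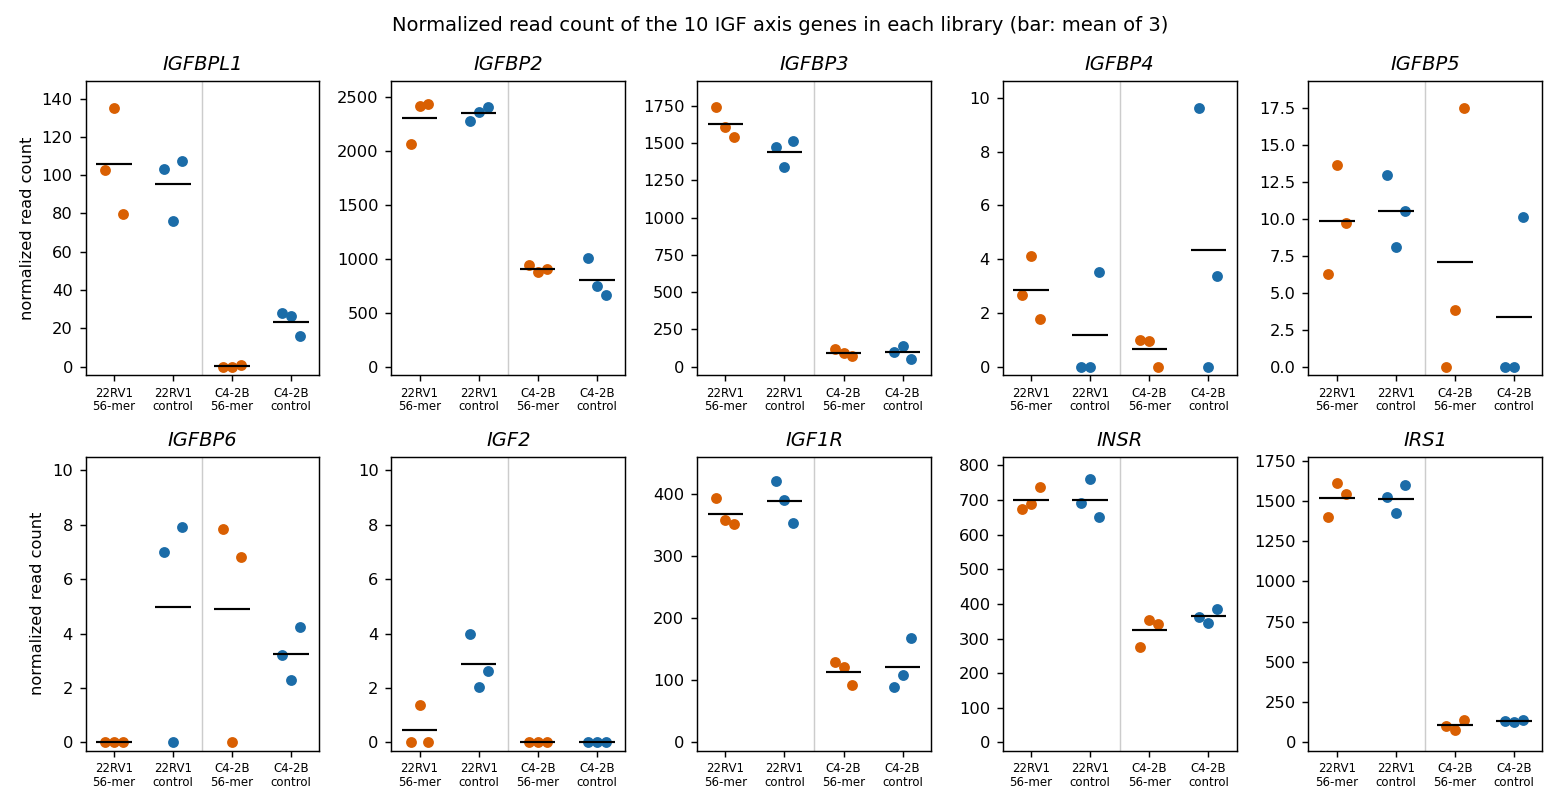
Normalized read count (vertical axis, from 0, own scale per gene) of the 10 genes in each of the 12 libraries, with 56-mer (orange) left of control (blue) for 22RV1 and then C4-2B; points are libraries and bars the mean of 3. IGFBPL1 lies at 0, 0 and 0.974 in C4-2B with 56-mer, below all 3 C4-2B controls, while its 22RV1 groups overlap.

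Reads near 0 in one group only were rare among expressed genes. In C4-2B, 14894 genes had at least 10 normalized counts in all 3 controls, and 4 of them (0.0269%) had at most 1 in all 3 libraries with 56-mer. Of the 14894 genes, 13628 had at least 20 in all 3 controls, and none of the 4 was among these. The small share is therefore set mostly by abundant genes. IGFBPL1 was selected on its counts, so its place among the 4 supports nothing. IGFBPL1 had the highest control mean of the 4. The others were C17orf50, with 0.327 ± 0.566 normalized counts with 56-mer and 13.8 ± 5.69 in controls, AC007899.1, with 0.327 ± 0.566 with 56-mer and 13.4 ± 3.10 in controls, and AC008267.2, with 0 in each treated library and 11.9 ± 1.47 in controls (SD, n = 3 each). The 3 others sat close to the limit of 10, and with limits of at most 2 and at least 20 no gene, IGFBPL1 included, remained. The reverse pattern was found in 0 of 14821 genes (0.0%) in C4-2B, and in 22RV1 neither direction had a gene (0.0% of 18393 low and 0.0% of 18270 high with 56-mer). With 1 library left out, fewer libraries have to meet the limits, so the count could only stay or rise. It was 5 to 12 when 1 C4-2B library was left out, and it was 7 without the first treated library.

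Of IGFBPL1's nearest neighbours on chromosome 9, 4 reached the level for testing in C4-2B; they were looked up after its values had been seen. In the RefSeq order of protein-coding genes the 3 on one side are SLC25A51, SHB and ALDH1B1, and the 3 on the other are ANKRD18A, FAM240B and CNTNAP3. ALDH1B1, a mitochondrial aldehyde dehydrogenase and the nearest on its side, averaged 780 ± 115 normalized counts in C4-2B with 56-mer and 745 ± 92.1 in C4-2B controls. ANKRD18A, the nearest on the other side, averaged 53.2 ± 13.1 with 56-mer and 51.6 ± 1.79 in controls (SD, n = 3 each). SHB, an SH2-domain adaptor, averaged 135 ± 29.4 with 56-mer and 149 ± 11.7 in controls, and SLC25A51, the mitochondrial NAD carrier, 88.8 ± 7.37 with 56-mer and 85.9 ± 35.8 in controls. None of these 4 passed in C4-2B (limma adjusted p 0.893 to 0.994, log2 changes −0.16 to 0.14). FAM240B was listed at 0 in all libraries, and CNTNAP3 stood below the level for testing in C4-2B, at 3.59 ± 5.40 with 56-mer and 4.85 ± 1.80 in controls.

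The genes whose profile was most like that of IGFBPL1 were abundant in both lines, with 1 exception. Likeness was Pearson's r over the 12 libraries, after the mean of the line's 6 libraries was taken from each log2 value, among 15526 other genes tested in both lines. It is a description that rests on the gap between the C4-2B groups, and correlations of this kind are high by selection. The 5 closest were ACLY (r = 0.96), which makes cytosolic acetyl-CoA from citrate, DIAPH1 (0.96), a formin that nucleates actin filaments, CASK (0.96), a scaffold kinase, FOXA1 (0.95), a pioneer transcription factor of luminal prostate cells, and Z97652.1 (0.94). ACLY averaged 3348 ± 12.9 normalized counts in C4-2B with 56-mer and 3982 ± 115 in C4-2B controls, and 4324 ± 137 in 22RV1 with 56-mer and 4430 ± 85.3 in 22RV1 controls. FOXA1 averaged 2750 ± 131 in C4-2B with 56-mer and 3492 ± 75.6 in C4-2B controls, and 4285 ± 51.6 in 22RV1 with 56-mer and 4369 ± 138 in 22RV1 controls. Z97652.1 came nearest in level, at 2.92 ± 1.96 in C4-2B with 56-mer and 24.7 ± 0.884 in C4-2B controls, and 44.9 ± 15.2 in 22RV1 with 56-mer and 65.2 ± 18.4 in 22RV1 controls (SD, n = 3 each). By Spearman's rho the values for these 5 were 0.86 to 0.96, and DIAPH1 moved to rank 56. Among the IGF axis genes r was 0.65 for IRS1 (rank 806), 0.48 for INSR, 0.06 for IGFBP3, −0.08 for IGF1R and −0.37 for IGFBP2.

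None of the other IGF axis genes passed the test of the 56-mer change. With limma, 0 of 6 tested in 22RV1 and 0 of 5 in C4-2B passed an adjusted p of 0.05, beside 0.00975% of all 20517 genes tested in 22RV1 and 0.066% of 16657 in C4-2B. At an unadjusted p under 0.05 the counts were 1 of 6 (3.91% of all genes) and 0 of 5 (8.92% of all genes). For the difference between the lines they were 0 of 5 adjusted (0.0% of 15527 genes) and 0 of 5 unadjusted (7.9%). edgeR and DESeq2 on recovered reads called 0 of these genes in each comparison. Their median log2 change was −0.016 in 22RV1 (−0.0026 over all genes) and −0.056 in C4-2B (−0.011 over all genes).

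IGFBP2, a secreted binding protein that holds both IGFs, was the most abundant of the 10 per kilobase of exon in both lines. It had 2061, 2417 and 2431 normalized counts in 22RV1 with 56-mer, against 2278, 2355 and 2406 in 22RV1 controls. In C4-2B it had 943, 879 and 904 with 56-mer, against 1003, 749 and 666 in controls. The groups overlapped in both lines, and the C4-2B controls spread most, with a coefficient of variation of 21.8% where counting error alone would give 3.58%. The log2 change was −0.031 ± 0.076 in 22RV1 (95% interval −0.18 to 0.12, limma adjusted p = 0.9996) and 0.19 ± 0.13 in C4-2B (−0.074 to 0.46, limma adjusted p = 0.689). Without the first treated library it was 0.047 in 22RV1, and in C4-2B it ran from 0.067 to 0.36, without the third and without the first control.

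IGFBP3, the main carrier of IGFs in serum, differed the most between the lines among those of the 10 that were read well in both. It had 1741, 1607 and 1544 normalized counts in 22RV1 with 56-mer, against 1471, 1338 and 1512 in 22RV1 controls. All 3 treated libraries lay above all 3 controls. The means were 1630 ± 100.5 with 56-mer and 1440 ± 91.1 in controls, a log2 change of 0.18 ± 0.083 (95% interval 0.012 to 0.35, unadjusted p = 0.0365, limma adjusted p = 0.9996), so the difference did not pass. Without the first treated library the log2 change was 0.13. Among all genes tested in 22RV1 the groups did not overlap in 9.03%, with 56-mer higher in 4.45% and lower in 4.58%. In C4-2B it had 116, 89.7 and 71.1 with 56-mer, against 99.6, 139 and 54.2 in controls. These groups overlapped fully, and the interval of the log2 change ran from −0.68 to 0.66 (estimate −0.0095, limma adjusted p = 0.995). Without the first treated library the C4-2B estimate was −0.19. With 1 C4-2B library left out at a time, it was negative in 3 fits (−0.38 to −0.0038) and positive in 3 (0.055 to 0.29).

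IGFBP4, IGFBP5 and IGFBP6 were barely read in either line. IGFBP4, which blocks IGF action until the protease PAPPA cuts it, had 2.68, 4.10 and 1.77 normalized counts in 22RV1 with 56-mer, against 0, 0 and 3.52 in controls, and 0.980, 0.954 and 0 in C4-2B with 56-mer, against 9.64, 0 and 3.39 in controls. IGFBP6, which prefers IGF2, had 0 in each 22RV1 library with 56-mer, against 7.0, 0 and 7.92 in controls, and 7.84, 0 and 6.82 in C4-2B with 56-mer, against 3.21, 2.28 and 4.24 in controls. Neither reached the level for testing. IGFBP5, which also binds extracellular matrix, was tested in 22RV1 only. It had 6.25, 13.7 and 9.72 normalized counts in 22RV1 with 56-mer, against 13, 8.12 and 10.6 in controls (log2 change −0.12 ± 0.72, limma adjusted p = 0.9996, and 0.14 without the first treated library). In C4-2B it had 0, 3.82 and 17.5 with 56-mer, against 0, 0 and 10.2 in controls. The groups of these genes overlapped in both lines. In GENCODE 29 the exons of IGFBP5 overlap an antisense gene, AC007563.2, and whether the authors counted by strand is not given.

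As parts of a whole, binding-protein transcripts had a different make-up in each line. Among IGFBPL1, IGFBP7 and IGFBP1 to IGFBP6, counted per kilobase, IGFBP2 made up 50.5 ± 2.87% in 22RV1 controls and 54.3 ± 2.17% in C4-2B controls. The length used was that of all annotated exons of a gene joined, 4767 bases for IGFBP2, 4571 for IGFBP3 and 1093 for IGFBPL1. It can exceed the transcript that was read, and all shares, ratios and orders per kilobase rest on it. The second place went to IGFBP3 in 22RV1, with 32.2 ± 0.388% against 6.90 ± 3.08% in C4-2B, and to IGFBP7 in C4-2B, where it held 30.4 ± 4.10%, while it held 7.61 ± 0.823% in 22RV1. IGFBP7, a relative with low IGF affinity, is not one of the 10 genes. IGFBPL1 made up 9.50 ± 2.27% with 56-mer and 8.90 ± 1.15% in controls in 22RV1, and 0.0872 ± 0.151% with 56-mer and 6.86 ± 1.31% in controls in C4-2B (SD, n = 3 each). In C4-2B the shares of IGFBP2 and IGFBP7 were 57.5 ± 4.37% and 34.9 ± 3.80% with 56-mer; since shares sum to a whole, they gain where another loses.

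**Figure D2:**
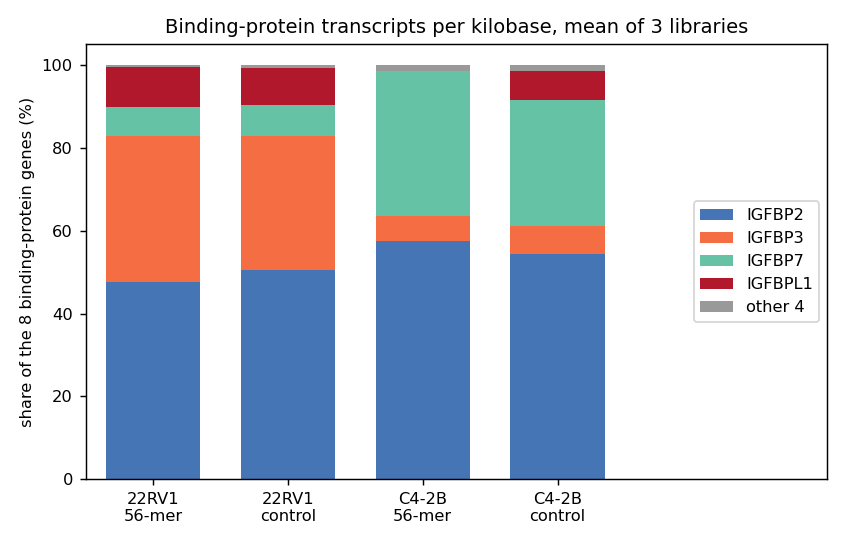
Mean share (%) of the 8 binding-protein genes in their summed count per kilobase of exon, for 22RV1 with 56-mer, 22RV1 control, C4-2B with 56-mer and C4-2B control (3 libraries each). IGFBP3 (32.2%) follows IGFBP2 in 22RV1 controls and IGFBP7 (30.4%) in C4-2B controls, and IGFBPL1 is 0.0872% in C4-2B with 56-mer, against 6.86% in its controls.

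The ligand IGF2, an imprinted fetal growth factor, was at the limit of detection. It had 0, 1.37 and 0 normalized counts in 22RV1 with 56-mer, against 4.0, 2.03 and 2.64 in 22RV1 controls, that is 1 read against 9. The treated libraries all lay below the controls, but at this depth a difference of a few reads is not interpretable, and the gene was not tested. In C4-2B no library held a read, which allows up to 0.0808 CPM with 56-mer and 0.0861 CPM in controls (3 reads over the group's total). INS-IGF2 and AC132217.1 share exons with IGF2 on its strand and IGF2-AS on the other, in GENCODE 29. INS-IGF2 was listed at 0 in all 12 libraries and IGF2-AS held 1 read in 1 of them. H19, the imprinted noncoding neighbour of IGF2, was read in both lines, at 37.2 ± 11.03 with 56-mer and 36.8 ± 15.6 in controls in 22RV1, and at 47.0 ± 20.6 with 56-mer and 53.6 ± 16.2 in controls in C4-2B.

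IGF1, the other ligand and not one of the 10, averaged 9.09 ± 6.37 normalized counts in 22RV1 controls and 136 ± 47.4 in C4-2B controls, 14.9 times higher in C4-2B (15.3 times by CPM), with no overlap. With 56-mer in C4-2B it had 155, 149 and 150, against 191, 106 and 111 in controls, and did not pass (log2 change 0.21 ± 0.25, limma adjusted p = 0.855).

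IGF1R, the receptor that both ligands share, had 393, 358 and 352 normalized counts in 22RV1 with 56-mer, against 421, 390 and 354 in 22RV1 controls. In C4-2B it had 129, 121 and 91.6 with 56-mer, against 88.9, 108 and 168 in controls. The groups overlapped in both lines. The log2 change was −0.076 ± 0.13 in 22RV1 (95% interval −0.34 to 0.18, limma adjusted p = 0.9996) and −0.056 ± 0.27 in C4-2B (−0.62 to 0.51, limma adjusted p = 0.973). Without the first treated library it was −0.13 in 22RV1 and −0.15 in C4-2B. With 1 C4-2B library left out at a time, the C4-2B value was negative in 4 fits (−0.25 to −0.11) and positive in 2 (0.093 to 0.20).

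INSR, the insulin receptor, had 673, 689 and 737 normalized counts in 22RV1 with 56-mer, against 691, 761 and 651 in 22RV1 controls. In C4-2B it had 276, 353 and 342 with 56-mer, against 362, 344 and 385 in controls, where the lowest value is that of the first treated library. The log2 change was −0.0014 ± 0.10 in 22RV1 (limma adjusted p = 0.9996) and −0.17 ± 0.16 in C4-2B (95% interval −0.50 to 0.15, limma adjusted p = 0.792). It was −0.065 in C4-2B without the first treated library. INSR exceeded IGF1R per kilobase in each of the 12 libraries. The ratio was 2.55 ± 0.258 with 56-mer and 2.42 ± 0.211 in controls in 22RV1, and 3.91 ± 1.07 with 56-mer and 4.25 ± 1.18 in controls in C4-2B (SD, n = 3 each), so the groups of a line were within their spread.

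IRS1, the adaptor that links both receptors to PI3K, had 1401, 1614 and 1541 normalized counts in 22RV1 with 56-mer, against 1522, 1424 and 1597 in 22RV1 controls. In C4-2B it had 100.01, 78.2 and 141 with 56-mer, against 133, 124 and 140 in controls. The groups overlapped in both lines, and 2 of the 3 treated C4-2B libraries lay below all controls. The log2 change was 0.0032 ± 0.083 in 22RV1 (95% interval −0.16 to 0.17, limma adjusted p = 0.9996) and −0.35 ± 0.26 in C4-2B (−0.89 to 0.19, limma adjusted p = 0.730). Single libraries moved the C4-2B value, which was −0.15 without the second treated library and −0.57 without the third. The difference between the lines, 22RV1 minus C4-2B, was 0.35 ± 0.23 (limma adjusted p = 0.713), and 0.15 and 0.58 without those libraries. That of the other 4 genes tested in both lines ran from −0.22 for IGFBP2 to 0.19 for IGFBP3 (limma adjusted p 0.747 to 0.993).

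**Figure D3:**
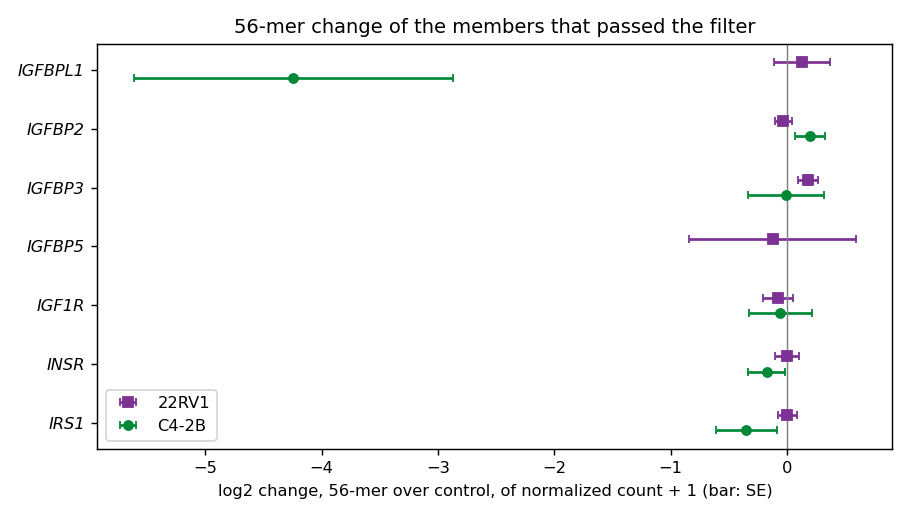
Log2 change, 56-mer over control, on the log2(normalized count + 1) scale with limma standard errors as bars, for the 7 genes tested in 22RV1 (purple squares) and the 6 tested in C4-2B (green circles). IGFBPL1 stands at −4.24 in C4-2B, and the other C4-2B estimates lie between −0.35 and 0.19.

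The better-read genes among the 10 stood higher in 22RV1 than in C4-2B. Genes outside the 10 went both ways, with IGF1 higher in C4-2B controls and the adaptor IRS2 higher in 22RV1 controls. Among genes read well in both lines, 6 of the 10 had higher normalized counts in every 22RV1 control than in any C4-2B control. The share of all genes with such a gap was not counted, so the 6 cannot be read as a trait of the axis. More genes reached the level for testing in 22RV1 (20517) than in C4-2B (16657). IGFBP3 was 14.8 times higher in 22RV1 (1440 ± 91.1 against 97.6 ± 42.5), IRS1 11.4 times (1514 ± 86.5 against 132 ± 7.74), IGFBPL1 4.08 times (95.5 ± 16.9 against 23.4 ± 6.37), IGF1R 3.19 times, IGFBP2 2.91 times and INSR 1.93 times. By CPM the ratios were 14.4, 11.1, 3.98, 3.10, 2.84 and 1.87. The C4-2B and 22RV1 ranges overlapped for IGFBP4, IGFBP5 and IGFBP6. These levels were part of how the genes were chosen and are not tested.

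Within 22RV1 controls the order by normalized count per kilobase was IGFBP2 (492 ± 13.6), IGFBP3 (315 ± 19.9), IRS1 (152 ± 8.69), IGFBPL1 (87.4 ± 15.5), INSR (67.1 ± 5.34) and IGF1R (27.8 ± 2.42). The remaining 4 lay at 3.69 or less on that scale. IGFBPL1 and INSR overlapped in range, and the other neighbours among the first 6 did not. Within C4-2B controls it was IGFBP2 (169 ± 36.9), INSR (34.8 ± 1.97), IGFBPL1 (21.4 ± 5.83), IGFBP3 (21.4 ± 9.30), IRS1 (13.3 ± 0.777) and IGF1R (8.73 ± 2.95), with the remaining 4 at 2.41 or less. There IGFBPL1 overlapped IGFBP3, and IGFBP3 overlapped IRS1. In both lines the 4 lowest genes overlapped their neighbours in range.

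**Figure D4:**
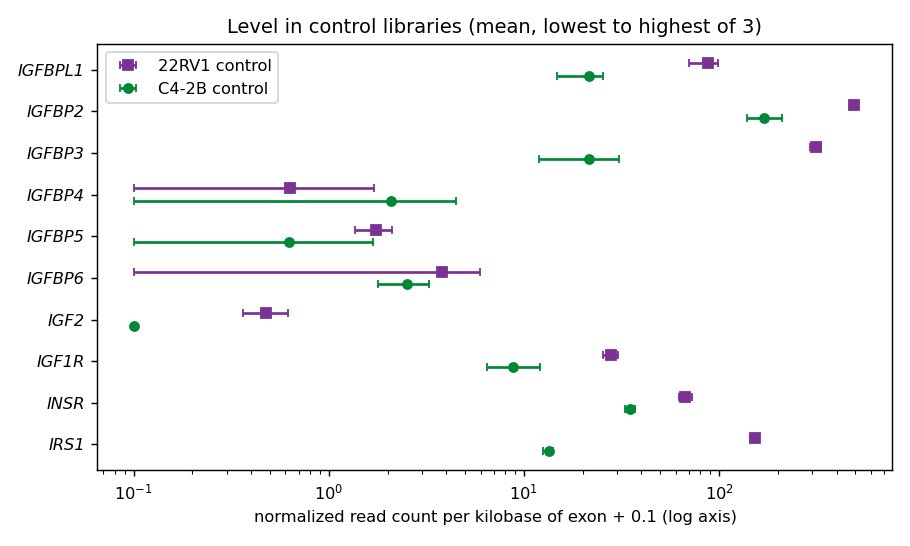
Normalized count per kilobase of exon plus 0.1 in controls (log axis) for the 10 genes in 22RV1 (purple squares) and C4-2B (green circles); points are means of 3 libraries and bars run from the lowest to the highest. IGFBP2 is highest in both lines (492 in 22RV1 and 169 in C4-2B), and IGFBP3 and IRS1 show the widest gaps between the lines.

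Of 64 further genes of the pathway, none passed the test of the 56-mer change in either line. Over all genes tested, 0.00975% passed in 22RV1 and 0.066% in C4-2B, so a count of 0 says little about the list. In 22RV1, 57 were tested, 28 with a positive and 29 with a negative estimate. Of these, 0 had an unadjusted limma p under 0.05, against 3.91% of all genes. Their median log2 change was −0.0032 (−0.0026 over all genes). In C4-2B, 49 were tested, 13 with a positive and 36 with a negative estimate. Their median was −0.083, against −0.011 over all genes, of which 51.7% had a negative estimate. In C4-2B 5 of the 49 (10.2%) had an unadjusted p under 0.05, against 8.92% of all genes. Without the first treated library the C4-2B split was 19 positive and 30 negative, and with columns scaled to equal totals it was 10 and 39, a scaling that put 58.1% of all genes below 0. edgeR and DESeq2 called 0 of the list in both lines.

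The genes of the list with the smallest p in C4-2B were IGF2R, IGF2BP3 and MAP2K2. IGF2R, the mannose 6-phosphate receptor that clears IGF2, had 1237, 1403 and 1555 normalized counts in C4-2B with 56-mer, against 1637, 1857 and 1753 in controls. The groups did not overlap, and the log2 change of −0.33 ± 0.099 did not pass (unadjusted p = 0.0029, limma adjusted p = 0.338). IGF2BP3, an RNA-binding protein that binds IGF2 mRNA, had 133, 104 and 172 with 56-mer, against 222, 189 and 196 in controls (−0.59 ± 0.23, limma adjusted p = 0.456). MAP2K2, a kinase of the MAPK cascade, averaged 3073 ± 154 with 56-mer and 2674 ± 160 in controls (0.20 ± 0.080, limma adjusted p = 0.483). In 22RV1 the log2 changes of these 3 were 0.05 to 0.07.

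In 22RV1 the smallest p belonged to HRAS, GSK3A and IRS4. HRAS, a RAS GTPase, averaged 686 ± 90.2 with 56-mer and 789 ± 25.0 in controls, and GSK3A, a kinase that AKT inhibits, 694 ± 122 with 56-mer and 793 ± 7.72 in controls. The log2 change was −0.21 for each, and in both the lowest value, 603 and 580, was that of the first treated library. IRS4, an adaptor of the IRS family, had 1.78, 10.9 and 7.07 with 56-mer, against 29, 11.2 and 9.68 in controls (limma adjusted p = 0.9996 for all 3). The highest levels per kilobase in controls belonged to MAP2K1, PTPN11 and IRS2 in 22RV1 and to HRAS, GRB10 and MAP2K2 in C4-2B. IRS2, the second main IRS adaptor, averaged 4158 ± 241 normalized counts in 22RV1 controls and 19.6 ± 6.97 in C4-2B controls, a wider gap than that of IRS1.

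**Figure D5:**
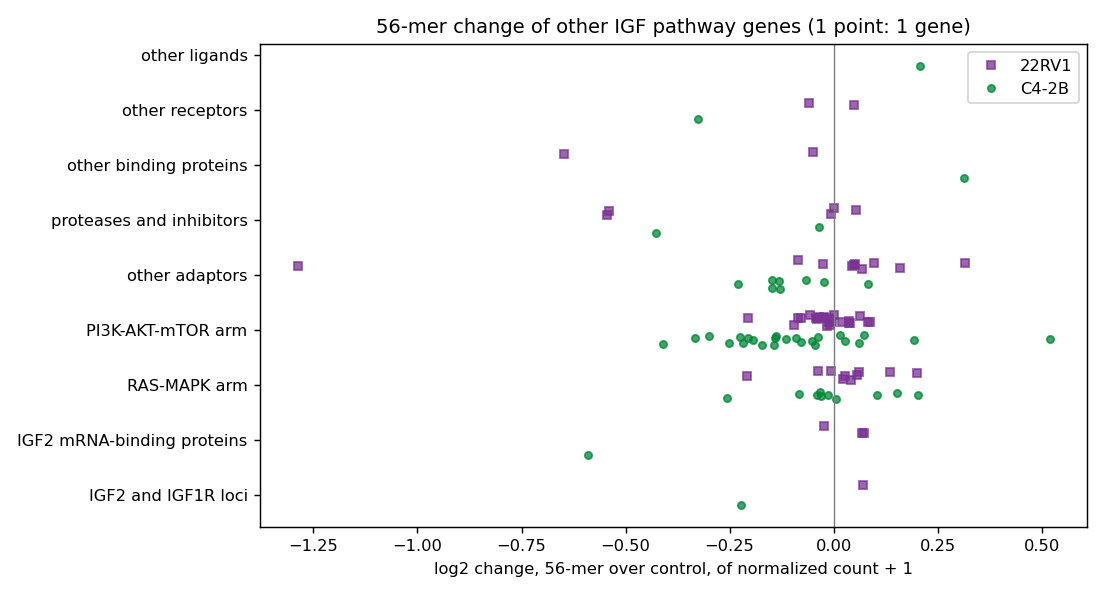
Log2 change, 56-mer over control, on the log2(normalized count + 1) scale of each tested gene of the 64 further pathway genes, by role, in 22RV1 (purple squares) and C4-2B (green circles). In C4-2B 36 of 49 estimates lie below 0 and in 22RV1 29 of 57, and none passed the test.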

How the data were processed

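Total RNA was purified on RNeasy columns and sequenced by Novogene, per the labels. The authors deposited 1 normalized table per line, whose signal is read counts divided by 1 size factor per library: each value is a whole number of reads within a tolerance of 0.01, and these reads were recovered (size factors 0.732 to 1.18). Their deposited comparison tables give log2 fold changes, a Wald score, p-values and adjusted p-values. DESeq is named in the submitters' processing notes, without a version; for the aligner, counter, build and annotation the sources used here give no name. Each table holds 60315 entries, of which 1 without a symbol was left out.

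Genes that reached 10 normalized counts in 3 or more of a line's 6 libraries entered limma 3.58.1 (R 4.3.3, trend and robust variance) on log2(normalized count + 1). Tests of 56-mer against control were two-sided, p-values were adjusted over all genes by Benjamini-Hochberg, and the threshold was 0.05. The difference between the lines was 1 fit of 12 libraries, with 1 variance per gene shared by both lines. Intervals are 95%. The fit was tested on simulated counts, with changes placed only in better-read genes and with no GC or length trend. That check does not cover low counts such as those of IGFBPL1 in C4-2B. edgeR 4.0.16 and DESeq2 1.42.0 were run on recovered reads as alternatives. Exon lengths (all annotated exons of a gene joined), GC content and exon overlaps came from GENCODE 29. Gene order and the promoter window came from RefSeq. Neither may be the authors' annotation. The members and lists were chosen with earlier results of these data known. The text names all 10 members, and of the further pathway genes the 3 with the smallest p and the 3 with the highest level per line, those at the IGF2 and IGF1R loci, and the genes nearest to IGFBPL1 by likeness. The transcripts INS and IRAIN of those loci were listed at 0 in all libraries. Basal, fibroblast, leukocyte and endothelial markers were read as checks: of the 6 fibroblast markers, 4 in 22RV1 with 56-mer, 3 in 22RV1 controls (COL1A1, COL3A1 and LUM in both) and 1 in each C4-2B group (COL1A1) stood at 10 or more in all 3 libraries, as did 1 of 4 endothelial markers in C4-2B (VWF). Of the 4 basal markers, 1 (KRT15) stood at 10 or more in all 3 C4-2B libraries with 56-mer, and 0 did so in each other group. KRT15 had 12.7, 11.4 and 37.0 normalized counts there, against 6.42, 17.1 and 26.3 in C4-2B controls. Summed, the fibroblast markers ran from 376 to 478 normalized counts in 22RV1 with 56-mer and from 343 to 394 in 22RV1 controls. Some luminal markers are not reported here.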

Additional observations from a re-analysis of the deposited data

How the results depend on the processing

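None of the members other than IGFBPL1, which was given no test, passed the threshold under any setting tried. IGFBPL1's log2 change in C4-2B was −6.69 and −1.68 with pseudocounts of 0.1 and 10, −5.71 with edgeR and −6.07 with DESeq2. Signs turned for values near 0: quantile normalization gave 0.042 for IGFBP3 in C4-2B and −0.015 for IRS1 in 22RV1, scaling to equal totals gave −0.014 for IRS1 in 22RV1, and the IGF1R difference between lines was 0.0050 with equal totals and 0.026 with edgeR. With 1 library left out, log2 changes ran from −0.38 to 0.29 for IGFBP3 and −0.25 to 0.20 for IGF1R in C4-2B, and in 22RV1 from −0.063 to 0.32 for IGFBPL1, −0.072 to 0.047 for IGFBP2, −0.28 to 0.14 for IGFBP5, −0.053 to 0.059 for INSR and −0.042 to 0.060 for IRS1. Differences between lines ran from −0.28 to 0.18 for IGF1R and −0.12 to 0.56 for IGFBP3. Genes called in C4-2B numbered 34 without a filter, 0 with edgeR and 42 with DESeq2, against 11; in 22RV1 11 without a filter, against 2; and for the difference between lines 1 with quantile normalization, 5 without a filter, 1 with edgeR and 11 with DESeq2, against 0. With 1 library left out these counts were 0 to 81, 0 to 11 and 0 to 13, and the 81 and 13 came without the first C4-2B library with 56-mer. Genes near 0 in one group were 0 at the stricter limits in C4-2B, against 4 low with 56-mer. With 1 library left out they were 5 to 12 (low) and 0 to 6 (high) in C4-2B, and 0 to 2 (low) and 0 to 1 (high) in 22RV1. These counts can only stay or rise when fewer libraries have to meet the limits. The median of the further pathway genes in C4-2B was −0.12 with equal totals and −0.12 to −0.047 with 1 library left out, and in 22RV1 −0.0040 to 0.018. The cause of the other shifts was not tested. Leaving out a C4-2B control gave no value for IGFBPL1, which then missed the filter. No paired analysis was possible because replicate numbers follow record order and pair nothing.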
